A study of Mus musculus with 6 samples.

Results

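The genes described here encode potassium channels and other channels that set the membrane potential of muscle cells. They were taken by symbol from a microarray study of primary mouse myoblasts. Of 10 listed genes, 9 had a probe set named by the platform annotation, out of 23279 named genes in all. For the remaining listed gene, Scn4a, encoding the muscle voltage-gated sodium channel, the platform annotation gave no probe set its symbol. It was therefore not analysed here, whether or not one of the unnamed probe sets measures it. The list was chosen by gene name with the activated and control values of these arrays already known, so the differences of its members are given as a description, with no test. The arrays held 3 activated and 3 control cultures. Both groups were C57bl6N myoblasts from limb muscle that carried Pax7-CreERT2, a tamoxifen-inducible recombinase driven in cells expressing the muscle stem cell factor Pax7, and 1 allele of beta-catenin with exon 3 between loxP sites. Removal of exon 3 yields a beta-catenin that escapes degradation, which mimics active Wnt signalling. Activated cultures were treated with 4-OH tamoxifen in ethanol, and control cultures with ethanol only. All were expanded for 5 passages and then kept for 24 hours in medium with 2% HS, which starts differentiation. The sources used here do not give the age or number of the donor mice or the share of recombined cells, and effects of the drug itself and of the recombination cannot be told apart.

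Potassium channels pull the membrane potential towards negative values, and this hyperpolarization is known to precede differentiation and fusion of human myoblasts, where the inward rectifier encoded by KCNJ2 and the ether-à-go-go channel encoded by KCNH1 take part. The Kcnn genes encode channels opened by intracellular calcium through bound calmodulin: Kcnn1, Kcnn2 and Kcnn3 encode the small-conductance channels SK1, SK2 and SK3, and Kcnn4 the intermediate-conductance channel. Small-conductance channels are known from immature and denervated muscle and are largely lost from innervated adult fibres, whereas the chloride channel encoded by Clcn1 dominates the resting conductance of mature fibres.

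Kcnn3 stood far from the other channel genes in these cultures: its measured level was 7.43-fold higher in activated than in control cultures, and the 3 activated arrays lay above the 3 control arrays. The control arrays were close to the level of olfactory receptor genes, most of which are silent outside olfactory tissue, and 1 of them was below it, so the size of this fold is uncertain. Kcnn4 was lower in activated cultures by 0.70 on the log2 scale, with overlapping groups. The other 7 genes differed by less than 0.5 in either direction, at levels close to or below that of olfactory receptor genes on most arrays. The upstream sequences of Kcnn3 and Kcnn4 are shown because these 2 genes had the largest differences. That of Clcn1 is shown because it was the 1 searched member window with a MEF2 site, bound by the Mef2 factors of muscle. Each run is the 250 bases before the RefSeq gene start (build GRCm38.p6), 5′ to 3′ on the gene's strand. Capitals mark E-boxes (CANNTG, a motif family that includes the sites of Myod1 and Myog) and MEF2 sites. The cores of the TCF/LEF site (CTTTGA and CTTTGT), through which beta-catenin acts, would also be in capitals. All 3 genes lie on the plus strand, Kcnn3 at chr3:89519914-89520163, Kcnn4 at chr7:24370013-24370262 and Clcn1 at chr6:42286435-42286684.
Kcnn3: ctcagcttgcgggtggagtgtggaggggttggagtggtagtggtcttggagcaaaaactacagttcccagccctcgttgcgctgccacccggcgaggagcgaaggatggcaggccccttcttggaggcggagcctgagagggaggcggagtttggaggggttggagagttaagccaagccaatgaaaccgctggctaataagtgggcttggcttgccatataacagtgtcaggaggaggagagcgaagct
Kcnn4: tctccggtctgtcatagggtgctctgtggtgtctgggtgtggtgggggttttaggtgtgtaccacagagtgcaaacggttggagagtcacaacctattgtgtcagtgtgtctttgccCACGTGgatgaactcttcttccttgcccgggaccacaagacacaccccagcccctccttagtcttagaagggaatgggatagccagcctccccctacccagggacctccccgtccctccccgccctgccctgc
Clcn1: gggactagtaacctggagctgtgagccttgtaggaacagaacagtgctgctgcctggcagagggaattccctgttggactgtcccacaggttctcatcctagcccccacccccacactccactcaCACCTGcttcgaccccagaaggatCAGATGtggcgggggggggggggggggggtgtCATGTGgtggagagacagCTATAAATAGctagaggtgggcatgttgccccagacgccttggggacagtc

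The Kcnn3 window held 0 E-boxes, 0 TCF/LEF cores and 0 MEF2 sites on either strand. The Kcnn4 window held 1 E-box, CACGTG, which began 133 bases before the gene start. The Clcn1 window held 3 E-boxes, beginning 125, 101 and 69 bases before the start, and 1 MEF2 site beginning 51 bases before it. Among all 32851 windows of the same length in the RefSeq table, 66.2% held an E-box, 27.6% a TCF/LEF core of either form and 2.92% a MEF2 site. Windows were searched for 7 of the 9 genes, printed or not, and those of Kcnn2 and Kcnj11 were not searched. Kcnj2 had 2 E-boxes, each of the 2 starts of Kcnn1 had 4, and Kcnj12 had 1 together with the only TCF/LEF core among the searched windows. Kcnh1 had no match. These matches describe letters and not binding.

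The arrays had median log2 levels between 4.08 and 4.27 in activated and between 4.19 and 4.37 in control cultures, with standard deviations over genes from 1.89 to 2.13 in activated and from 1.72 to 2.02 in control cultures. All 5 myoblast markers (Pax7, Myf5, Myod1, Des and Cdh15) were above the level of olfactory receptor genes on the 3 arrays of at least 1 group. That level, the 95th percentile of 1066 olfactory receptor genes on the same array, stood in for detection calls and ran from 3.83 to 4.19 in activated and from 4.04 to 4.70 in control cultures. Axin2, a feedback target used to read beta-catenin activity, was at 5.50, 5.85 and 6.54 in activated replicates 1, 2 and 3, against 4.55, 3.81 and 4.58 in the control replicates. The 3 activated arrays were above the control arrays, and the Axin2 difference did not pass (limma, adjusted p = 0.29). With the replicate number as a block in the model its adjusted p was 0.084 (limma).

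In the fit over all genes, 0 of 23279 genes (0%) passed an adjusted p of 0.05 (limma with Benjamini-Hochberg adjustment). At an unadjusted p under 0.05 there were 1830 genes (7.86%), of which 1034 had the higher level in activated cultures and 796 the lower. When the replicate number entered the model as a block, 31 genes (0.133%) passed, 28 higher and 3 lower. None of the 9 channel genes was among the calls without the block, and 1 of them, Kcnn3, was among the 31 with it. The activated arrays lay above all control arrays for 1 of the 9 channel genes, against 5.4% of all genes, and below them for 0 of the 9, against 7.4% of all genes. Since the list was chosen with this contrast in view, nothing is read from these counts. The median difference (activated minus control) of the 9 was -0.34 on the log2 scale, beside -0.08 over all genes, and 3 were higher and 6 lower.

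**Figure D1:**
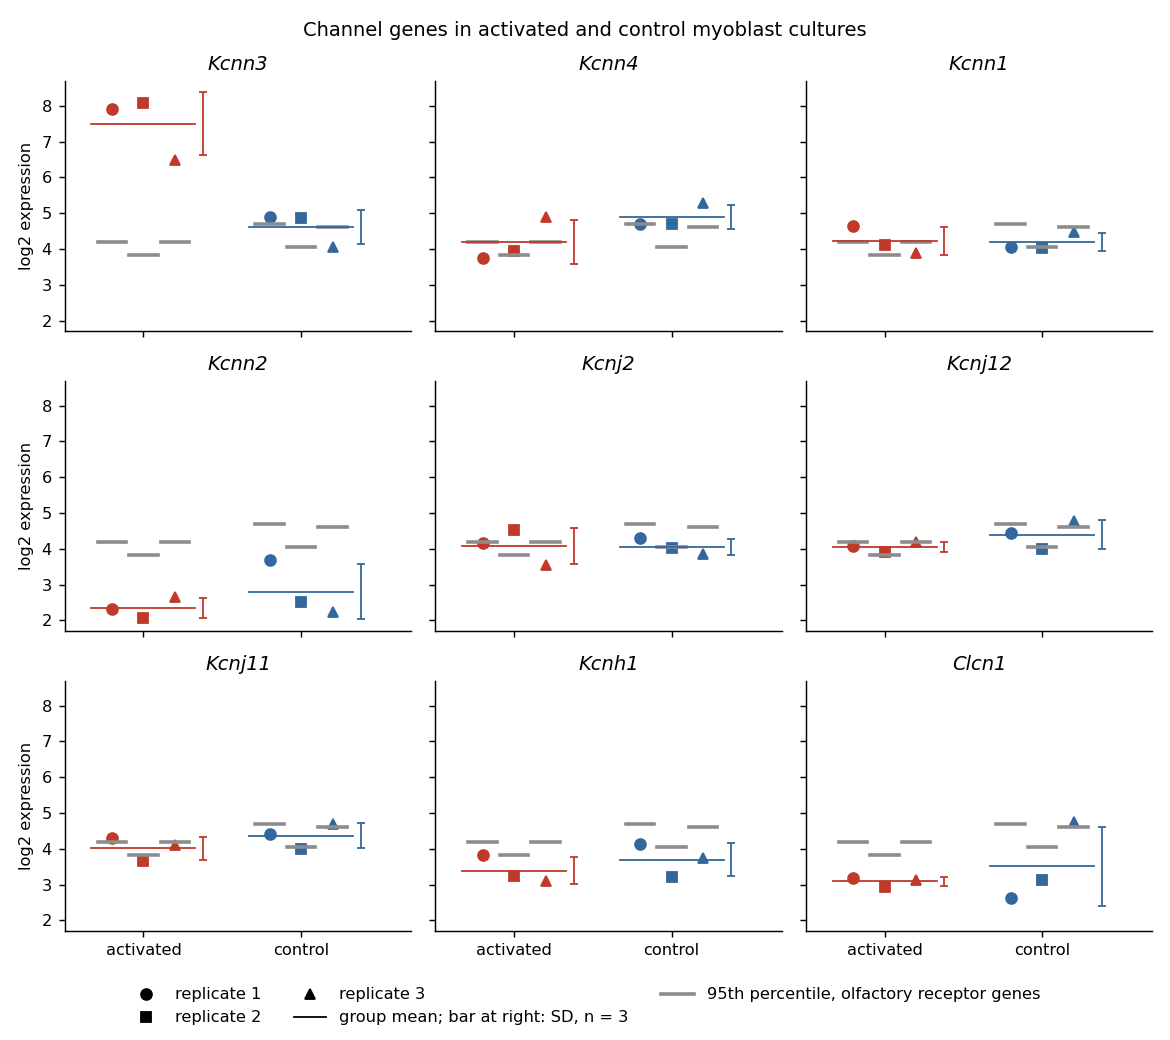
Log2 expression of the 9 channel genes (vertical axis) in activated (red, left) and control (blue, right) cultures, 1 point per array with the symbol giving the replicate number. Coloured lines are group means, the bars at their right are SDs (n = 3), and grey dashes are the 95th percentile of olfactory receptor genes on the same array. Kcnn3 alone has activated arrays far above the grey dashes (6.50 to 8.09).

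Among the small-conductance channels, Kcnn3 (Entrez 140493), which encodes SK3, was at 7.91, 8.09 and 6.50 in activated replicates 1, 2 and 3, against 4.90, 4.86 and 4.06 in the control replicates, on the log2 scale. The lowest activated array was 1.60 above the highest control array, and replicate 3 was the lowest array of each group. The means were 7.50 ± 0.87 in activated and 4.61 ± 0.47 in control cultures (SD, n = 3 each), a difference of 2.89 ± 0.46 (limma SE) on the log2 scale. Within the numbered pairs the difference was 3.02, 3.23 and 2.43. Kcnn3 was above the olfactory receptor level on 3 of 3 activated arrays and on 2 of 3 control arrays, and control replicate 3 was below it. The control level was thus close to that of olfactory receptor genes, and how the correction of low values bears on the 7.43-fold value was not tested.

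Kcnn1 (Entrez 84036), encoding SK1, was at 4.65, 4.11 and 3.89 in activated and at 4.04, 4.03 and 4.48 in control replicates 1, 2 and 3. The groups overlapped, with a difference of 0.03 ± 0.28 (SE) whose sign varied with the array left out. Kcnn2 (Entrez 140492), encoding SK2, was at 2.31, 2.08 and 2.65 in activated and at 3.68, 2.51 and 2.23 in control cultures, and was above the olfactory receptor level on 0 of 6 arrays. Control replicate 1 stood apart from the other 5 arrays, and the Kcnn2 difference of -0.46 ± 0.40 (SE) was -0.02 without it. The differences of Kcnn1 and Kcnn2 were smaller than the spread between arrays of 1 group.

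Kcnn4 (Entrez 16534), the intermediate-conductance channel described in proliferating myoblast and fibroblast lines, was at 3.75, 3.94 and 4.88 in activated cultures, against 4.70, 4.69 and 5.27 in control cultures. Activated replicate 3 lay inside the control range, and the other activated arrays lay below it. The means were 4.19 ± 0.60 in activated and 4.89 ± 0.33 in control cultures (SD, n = 3 each), a log2 difference of -0.70 ± 0.35 (SE). Each numbered pair had the activated array lower, with log2 differences of -0.95, -0.75 and -0.39. Without activated replicate 3 the difference was -1.04, and without activated replicate 1 it was -0.48. Leaving out activated replicate 3, the only activated array inside the control range, ends the overlap by construction, so nothing is read from that. Kcnn4 was above the olfactory receptor level on 2 of 3 activated and on 3 of 3 control arrays.

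Of the inward rectifiers, which hold the resting potential near the potassium equilibrium, Kcnj2 (Entrez 16518) was at 4.15, 4.53 and 3.54 in activated and at 4.30, 4.02 and 3.86 in control cultures. The groups overlapped fully, with a difference of 0.01 ± 0.30 (SE) that ran from -0.22 without activated replicate 2 to 0.28 without activated replicate 3. Kcnj12 (Entrez 16515), a second muscle inward rectifier, was at 4.07, 3.90 and 4.19 in activated and at 4.44, 3.98 and 4.77 in control cultures, a difference of -0.34 ± 0.26 (SE). It was -0.15 without control replicate 3, -0.55 without control replicate 2 and -0.18 after cyclic loess. All 3 pairs had the activated array lower, by less than the spread between control cultures in 2 of them. Kcnj11 (Entrez 16514), the pore of the ATP-sensitive potassium channel, was at 4.29, 3.65 and 4.09 in activated and at 4.42, 3.99 and 4.70 in control cultures, a difference of -0.36 ± 0.28 (SE). It was -0.18 without activated replicate 2, -0.55 without control replicate 2 and -0.19 after cyclic loess. Kcnj2 exceeded the olfactory receptor level on 1 of 6 arrays, Kcnj11 on 2 and Kcnj12 on 3. At the 90th percentile of olfactory receptor genes the counts were 4 for Kcnj2, 6 for Kcnj11 and 6 for Kcnj12. The differences of these genes were thus measured at low levels, where the count depends on the percentile used.

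Kcnh1 (Entrez 16510), the voltage-gated ether-à-go-go channel, was at 3.81, 3.24 and 3.10 in activated and at 4.13, 3.21 and 3.74 in control cultures. It was above the olfactory receptor level on 0 of 6 arrays, and the groups overlapped with a difference of -0.31 ± 0.32 (SE). The Kcnh1 difference was -0.09 without control replicate 1 and -0.55 without control replicate 2. On all 6 arrays it was -0.11 after cyclic loess, -0.14 after quantile normalization and -0.18 after median centring. Its size thus varied with single arrays and with the scaling. Clcn1 (Entrez 12723), the chloride channel of mature fibres, whose loss causes myotonia, was at 3.19, 2.93 and 3.14 in activated and at 2.64, 3.12 and 4.76 in control cultures. Its only array above the olfactory receptor level was control replicate 3. The Clcn1 difference of -0.42 ± 0.51 (SE) was 0.21 without that array, so 1 array set its sign.

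**Figure D2:**
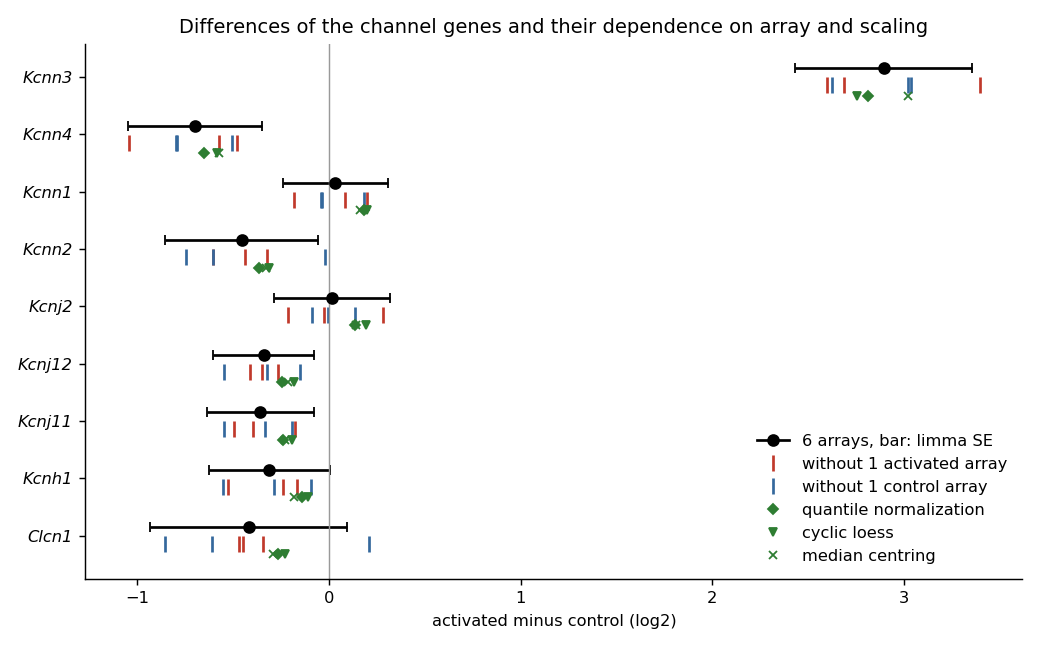
Activated minus control differences on the log2 scale (horizontal axis) for the 9 channel genes, with black points for the 6 arrays and bars for limma's SE. Vertical ticks leave out 1 activated (red) or 1 control (blue) array, and green symbols are values after further scaling. Kcnn3 stays between 2.60 and 3.40, while Clcn1 runs from -0.85 to 0.21.

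The genes with the profile nearest to Kcnn3 were found by the root mean square distance between log2 values over the 6 arrays, each gene centred on its own mean. They were the doublecortin-like kinase Dclk1 (distance 0.27), the M-band protein Myom1 (0.28) and the filamin-interacting protein Filip1 (0.29). Dclk1 was at 10.03, 10.42 and 9.19 in activated and at 7.47, 7.82 and 6.56 in control cultures. Like Kcnn3, the 3 nearest genes had replicate 3 as the lowest array of both groups. The genes nearest to Kcnn4 were the single-stranded DNA-binding protein Nabp1 (0.07), the anchoring protein Akap12 (0.11) and the G-protein regulator Rgs8 (0.12), each highest in control replicate 3. The genes nearest to Clcn1 were Mink1, Npm2 and Gm4559 (0.09 to 0.12), and all 3 were highest in control replicate 3. Those nearest to Kcnn2 were Khdc1a, Prrt1 and the olfactory receptor gene Olfr1089 (0.10 to 0.13), which were highest in control replicate 1. These distances, over 6 arrays in 2 groups, are given as a description.

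**Figure D3:**
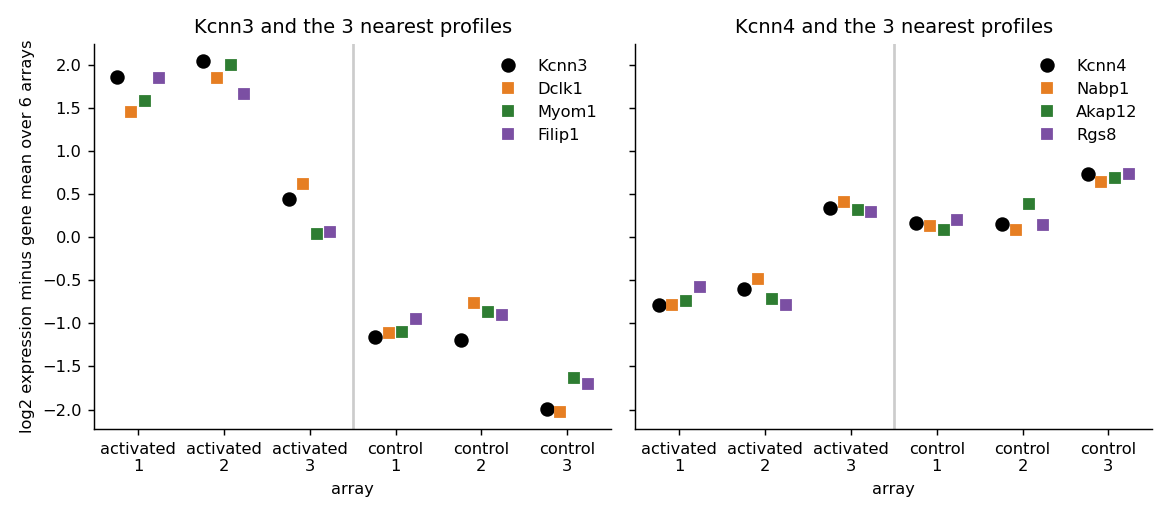
Log2 expression minus the gene's mean over the 6 arrays (vertical axis) on each array (horizontal axis, activated at the left), for Kcnn3 (left panel) and Kcnn4 (right panel) with their 3 nearest genes. In the left panel replicate 3 is the lowest array of each group, and in the right panel activated replicate 3 reaches the control arrays.

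Most genes of the muscle differentiation list had higher levels in activated cultures, as Kcnn3 did. Activated cultures had the higher mean for 9 of its 10 measured genes, against 40.3% of all genes, and the exception was the muscle creatine kinase Ckm (-0.27). For 8 of the 10 the activated arrays lay above all control arrays, against 5.4% of all genes. The median difference was 1.68, beside -0.08 over all genes, and all 10 exceeded the olfactory receptor level. In the fit over all genes 0 of the 10 passed without the block, and 2, Actn2 and Mef2c, passed with it. Its summed log2 level ran from 86.5 to 97.3 in activated and from 66.4 to 82.6 in control cultures. Myog, the transcription factor of early differentiation, was at 9.36, 11.33 and 10.01 in activated and at 8.68, 8.85 and 6.51 in control cultures. The part of differentiation in the Kcnn3 and Kcnn4 values was not tested, and more cells of a type and more RNA per cell cannot be told apart in such bulk cultures.

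Markers of other cell types were mostly within the level of olfactory receptor genes. The endothelial list had 0 of 5 markers above the olfactory receptor level (Cdh5, Kdr, Pecam1, Tek and Vwf were not above it), with summed log2 levels from 15.2 to 16.8 in activated and from 16.3 to 17.4 in control cultures. The neural and Schwann cell list had 1 of 4 above it, the neuronal splicing factor Rbfox3, and Sox10, S100b and Snap25 were not above it. Its sum ran from 14.1 to 16.2 in activated and from 15.9 to 17.7 in control cultures. The leukocyte list had 1 of 4 above it (Cd68, with Aif1, Csf1r and Ptprc not above it), with sums from 14.6 to 15.6 and from 14.3 to 17.8 in activated and control cultures. The fibroblast list had Col1a1 and Col3a1 above it, and Dcn, Lum and Pdgfra not, with sums from 18.2 to 18.9 and from 19.7 to 20.0 in activated and control cultures. Most of the gap between these sums came from the collagen gene Col3a1, with a difference of -0.95 ± 0.50 (SE) and overlapping groups, while the other 4 markers differed by at most 0.15. Of the smooth muscle and pericyte list Rgs5, Cspg4 and Acta2 were above it and Cnn1 and Myh11 were not, with sums from 27.3 to 30.7 and from 28.1 to 30.4 in activated and control cultures. Markers of this list differed in opposite directions, which the sums do not show. Rgs5, a G-protein regulator of pericytes, was at 7.17, 7.50 and 8.74 in activated and at 9.62, 10.46 and 8.67 in control cultures. Its difference was -1.78 ± 0.55 (SE), with a limma adjusted p of 0.473, and 0.229 with the replicate block. Acta2, the smooth muscle actin, was at 9.39, 10.58 and 10.53 in activated and at 8.95, 9.55 and 8.75 in control cultures. Its difference was 1.08 ± 0.39 (SE), with a limma adjusted p of 0.557, and 0.172 with the replicate block. Cspg4 had a difference of 0.55 ± 0.31 (SE). The groups overlapped for all 3, and their part in the Kcnn3 and Kcnn4 values was not tested. The summed myoblast markers ran from 38.5 to 41.4 in activated and from 36.8 to 39.4 in control cultures, with 4 of 5 higher. The exception was Pax7, with a difference of -0.60 ± 0.31 (SE). Des (1.56) and Cdh15 (1.03) had the largest differences of the list, and Myf5 (0.38) and Myod1 (0.16) smaller ones. No gene of the marker lists in this paragraph passed over all genes with or without the block.

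Beyond the members, 107 other channel, partner and pump genes were measured, of which 25 exceeded the olfactory receptor level. Of the 107, 32 were higher and 75 lower, where 40.3% of all genes were higher. Their median difference was -0.13, beside -0.08 over all genes. Most of the lower genes were not above the olfactory receptor level. That level ran from 3.83 to 4.19 in activated and from 4.04 to 4.70 in control cultures. How it bears on these counts was not tested. In the fit over all genes 0 of the 107 passed with or without the block, against 0.133% and 0% of all genes. At an unadjusted p under 0.05 there were 5 of them (4.67%), beside 7.86% of all genes: Atp1b1 and Kcnma1 were higher and Kcng1, Scn7a and Scn9a lower. As deposited, none of the 107 differed as much in absolute size as Kcnn3, but without control replicate 1 Atp1b1 had the larger difference, 3.12 beside 3.04 for Kcnn3. The other calcium- and sodium-activated pore subunits (Kcnma1, Kcnt1, Kcnt2 and Kcnu1) were not above the olfactory receptor level, with 2 of 4 higher and a median difference of 0.03 (-0.02 without activated replicate 1).

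Among the partners and pumps, 5 of 9 were higher, with a median of 0.01 that was 0.51 without activated replicate 1 and -0.16 without activated replicate 2. Atp1b1, a beta subunit of the sodium-potassium pump that maintains the potassium gradient, was at 8.44, 8.91 and 6.98 in activated and at 6.30, 5.32 and 4.66 in control cultures. The activated arrays lay above the control arrays, with replicate 3 again lowest in each group. The Atp1b1 difference of 2.68 ± 0.59 (SE) did not pass (limma, adjusted p = 0.299, and 0.057 with the replicate block). Abcc9, a sulphonylurea receptor that pairs with the pore encoded by Kcnj11, was at 6.76, 6.02 and 4.30 in activated and at 4.38, 4.45 and 4.48 in control cultures. Activated replicates 1 and 2 were high and activated replicate 3 was below the control arrays (limma, adjusted p = 0.648, and 0.282 with the replicate block). Kcnj11 itself did not share this pattern.

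Of the 11 sodium channel subunits measured, 4 were higher and 7 lower, with a median of -0.10 that became 0.05 after quantile normalization. The 1 subunit above the olfactory receptor level was Scn9a, a sodium channel best known from sensory neurons. It was at 5.70, 5.24 and 7.17 in activated and at 8.45, 8.04 and 8.83 in control cultures. The activated arrays lay below the control arrays, and activated replicate 3 was nearest to them. The Scn9a difference of -2.40 ± 0.50 (SE) did not pass (limma, adjusted p = 0.279, and 0.054 with the replicate block). The 6 other ClC genes were mostly of intracellular transporters, and 4 were higher. All 6 were above the olfactory receptor level on the 3 arrays of at least 1 group, unlike Clcn1. Their median of 0.04 was -0.11 when quantiles were normalized again and -0.05 with cyclic loess, and leaving out 1 array gave -0.08 to 0.17. Clcn5 had a difference of 0.33 ± 0.33 (SE), which was 0.07 after quantile normalization, -0.001 after cyclic loess and 0.05 without control replicate 3. Clcn6 had a difference of 0.30 ± 0.41 (SE), which was -0.03 without control replicate 1 and 0.75 without control replicate 3.

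The other potassium channel families had medians between -0.25 and -0.13, beside -0.08 over all genes. Of 35 voltage-gated pore subunits 8 were higher and 27 lower, with a median of -0.13 (0.03 after quantile normalization). Among them Kcng1, a silent modulatory subunit, was at 3.95, 3.91 and 3.47 in activated and at 5.23, 4.39 and 5.03 in control cultures. Its limma adjusted p was 0.384, and 0.147 with the replicate block. Kcnc4 had a difference of 0.51 ± 0.23 (SE). Of 12 other inward rectifiers 2 were higher, with a median of -0.17 (0.02 after cyclic loess), and Kcnj14 and Kcnj4 had differences of -0.37 ± 0.38 and -0.18 ± 0.31 (SE). The Kcnj14 difference was 0.07 without control replicate 3, and that of Kcnj4 was -0.004 without activated replicate 2 and -0.014 without control replicate 1, so single arrays set the sign or size of both. Of 14 tandem-pore-domain channels 4 were higher, with a median of -0.25, and Kcnk13 and Kcnk4 had differences of 0.46 ± 0.26 and -0.42 ± 0.30 (SE). Leaving out 1 array gave 0.30 to 0.64 for Kcnk13 and -0.67 to -0.21 for Kcnk4. Of 16 accessory subunits 3 were higher, with a median of -0.23, and the 1 above the olfactory receptor level, Kcne1l, had a difference of -0.33 ± 0.30 (SE), which was -0.09 without control replicate 2. Of these 77 genes, 13 exceeded the olfactory receptor level.

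**Figure D4:**
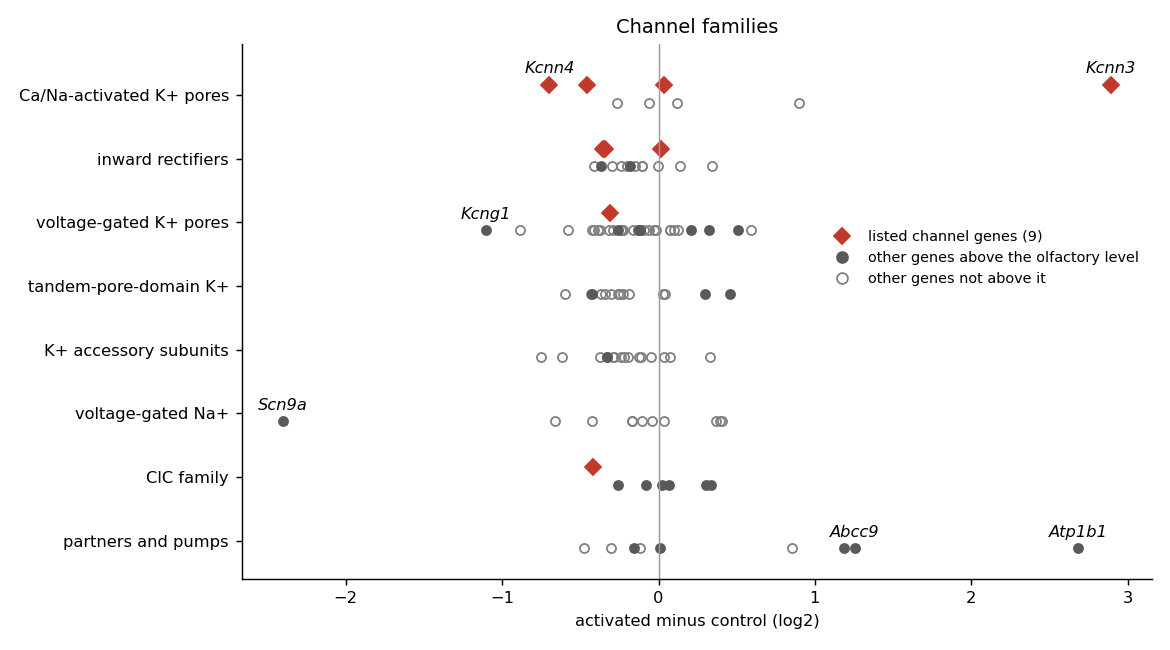
Activated minus control differences on the log2 scale (horizontal axis) for the 9 listed channel genes (red diamonds) and 107 other genes by family (grey, filled where above the olfactory receptor level). Kcnn3 (2.89) and Atp1b1 (2.68) lie at the right, Scn9a (-2.40) at the left, and most others near 0.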

How the data were processed

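The deposited table holds log2 expression values of 24479 probe sets on 6 arrays. The submitters' processing notes name RMA and Partek, without version or role. Settings, array design, detection calls and scan or slide batches were not given in the sources used here. Target was made from 100 ng of total RNA, per the labels' protocols. The platform annotation gave 1 symbol to 23281 probe sets, several to 0 and none to 1198. For 2 symbols with several probe sets the one with the highest mean was used, leaving 23279 genes. Of the named probe sets, 23156 had the same symbol in the RefSeq gene table (GRCm38.p6), matched on the Entrez number.

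limma 3.58.1 in R 4.3.3 fitted group as the only term to all genes (moderated two-sided tests, Benjamini-Hochberg adjustment, no filter on dim genes). The code of this fit was run on simulated independent values with planted changes. That setting has no effect of the replicate number, so nothing is read from it on these arrays. Replicates are separate cultures per the labels. Whether they came from different animals is not stated, so p-values measure the spread between cultures, and the number of arrays limits the precision. The main fit did not use the replicate numbers shared between groups. In the replicate block they were taken to pair the arrays, since deviations from the group means correlated at 0.38, 0.49 and 0.45 over genes. The members and the gene lists were chosen with earlier results of these data known. The genes named were all members matched, the 2 genes with the largest absolute difference of each family list among those above the olfactory receptor level, all marker genes where their list is described, and the 3 nearest profiles of the 4 members with the largest range. The alternatives were further scaling, the replicate block, a filter on dim genes, an intensity trend, averaged probe sets, another olfactory percentile and leaving out each array.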

Additional observations from a re-analysis of the deposited data

How the results depend on the processing

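Of the 9 channel genes, 6 kept the sign of their difference under the 3 scalings and when each of the 6 arrays was left out, Kcnn2 with a value of only -0.020 without control replicate 1. The replicate block leaves each difference as it is in this balanced design and changes its error only. The exceptions were Kcnn1, Kcnj2 and Clcn1, which changed sign when single arrays were left out. Kcnn3 ran from 2.60 without activated replicate 2 to 3.40 without activated replicate 3, and was 2.81 after quantile normalization, 2.75 after cyclic loess and 3.02 after median centring. The median of the 9 genes ran from -0.55 without control replicate 2 to -0.093 without control replicate 1. Leaving out 1 array gave 0 to 2 genes with the activated arrays below all control arrays, and 1 with them above in each case. Groups of fewer arrays separate more easily, and the share of all genes at these settings was not computed, so nothing is read from these counts. At the 90th percentile of olfactory receptor genes 5 channel genes were above the level on all arrays of a group, against 2 at the 95th. Over all genes, 31 passed with the replicate block and 3875 had an unadjusted p under 0.05. Leaving out 1 array gave 0 to 28 passing genes (28 without activated replicate 3) and 907 (without activated replicate 2) to 3066 (without control replicate 2) at an unadjusted p under 0.05, and testing only genes at or above the median level gave 1166. Median centring moved the median difference of all genes to 0.04 and the share of higher genes to 55.6%, against -0.08 and 40.3% as deposited. The median of the accessory subunits was -0.043 after quantile normalization and -0.037 after cyclic loess, that of the sodium channels 0.049 and 0.052, and that of the ClC genes -0.11 after quantile normalization. The causes of these shifts were not tested. The block changed no other call among the members or the channel families.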
